A study of Homo sapiens with 54 samples.

Results

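The 31 genes described here make cholesterol and fatty acids in the cell, or control the factors that switch those genes on. They were picked by name, as genes known to belong to the SREBP pathway. All 31 were among the 38137 genes listed in the deposited table, and all 31 were among the 15378 genes with enough reads to be tested. They fall into 6 enzymes of the mevalonate pathway (HMGCS1, MVK, PMVK, MVD, IDI1 and FDPS), 11 enzymes that carry the product on through squalene to cholesterol (FDFT1, SQLE, LSS, CYP51A1, TM7SF2, MSMO1, NSDHL, HSD17B7, EBP, SC5D and DHCR7) and 5 regulators (SREBF1, SREBF2, SCAP, INSIG1 and INSIG2). The others are the sterol carrier STARD4, the acetyl-CoA enzymes ACLY and ACAT2, 5 fatty acid enzymes (FASN, SCD, FADS1, FADS2 and ELOVL6) and the phosphatidate phosphatase LPIN1.

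Poly(A) RNA was sequenced from 54 cultures of HEK293T, a line of human embryonic kidney origin carrying the SV40 large T antigen, in 18 groups of 3 independent replicates. In 15 groups a plasmid brought in 1 of 3 versions of RfxCas13d, an RNA-guided nuclease that cuts RNA: the wild-type enzyme (WT) or the high-fidelity variants N2V7 and N2V8, made to lessen the cutting of bystander RNA. Each version came with a non-targeting crRNA (NTG), with S13, a crRNA against C9orf72 transcripts, or with 1 of 3 further crRNAs that the labels name S3, S4 and S7 and describe as references without giving their target. Of the other 3 groups, UT was left untransfected, and ASO2 and ASO4 received 1 antisense oligonucleotide each. The cell line was of wild-type genotype throughout, and all cells grew in DMEM with fetal bovine serum, which itself supplies cholesterol. The labels give harvest at 48 h after transfection, whereas the text of the study gives a later time. Transfection was transient, so that each culture may mix cells with and without the plasmid, and in bulk RNA a change in every cell cannot be told apart from a larger change in some of them. NTG and UT cells differ in transfection, effector and crRNA together, which cannot be told apart. How the oligonucleotides were delivered was not given in the labels, and the only reference for them here is the untransfected group.

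Cells set the output of this pathway through SREBP proteins, transcription factors that are made as precursors in the membrane of the endoplasmic reticulum. SCAP escorts the precursors to the Golgi, where proteases free the active part. When sterols are plentiful, INSIG proteins hold SCAP back and the genes fall together, and when sterols run short the genes rise together. SREBF2 encodes SREBP-2, which acts mainly on cholesterol genes, and SREBF1 encodes SREBP-1, which acts mainly on fatty acid genes.

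The promoters of members whose levels moved together, and of SREBF2, the regulator with the lowest p-value over all groups, are printed to show which of the known binding letters they hold. They are 300 bases each, from 250 before to 50 after the RefSeq transcription start (GRCh38.p14), written 5′ to 3′ on the strand of the gene. Capitals mark TCANNCCAC, a loose form of the sterol regulatory element bound by SREBP, and CCAAT or its reverse ATTGG, the box bound by NF-Y, a common partner of SREBP. SREBF2 lies at chr22:41832855-41833154 (plus strand), INSIG1 at chr7:155297628-155297927 (plus), HMGCS1 at chr5:43313363-43313662 (minus) and MSMO1 at chr4:165327419-165327718 (plus).
SREBF2: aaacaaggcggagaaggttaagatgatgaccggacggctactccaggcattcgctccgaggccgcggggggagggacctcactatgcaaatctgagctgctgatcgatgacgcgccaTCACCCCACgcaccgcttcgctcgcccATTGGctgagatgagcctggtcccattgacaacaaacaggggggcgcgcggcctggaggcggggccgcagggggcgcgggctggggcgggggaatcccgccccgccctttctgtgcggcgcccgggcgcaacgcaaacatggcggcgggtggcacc
INSIG1: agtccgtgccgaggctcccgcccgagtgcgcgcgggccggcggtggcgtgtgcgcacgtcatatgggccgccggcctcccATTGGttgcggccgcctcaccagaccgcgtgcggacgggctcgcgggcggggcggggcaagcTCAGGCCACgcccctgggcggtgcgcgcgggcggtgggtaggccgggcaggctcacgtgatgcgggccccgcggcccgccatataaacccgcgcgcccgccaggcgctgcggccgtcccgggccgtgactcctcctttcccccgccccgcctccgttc
HMGCS1: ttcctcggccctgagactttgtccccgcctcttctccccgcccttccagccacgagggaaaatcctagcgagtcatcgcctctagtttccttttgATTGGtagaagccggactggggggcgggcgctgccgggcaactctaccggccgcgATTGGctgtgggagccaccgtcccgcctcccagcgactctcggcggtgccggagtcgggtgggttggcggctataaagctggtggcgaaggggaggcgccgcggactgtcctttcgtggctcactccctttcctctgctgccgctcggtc
MSMO1: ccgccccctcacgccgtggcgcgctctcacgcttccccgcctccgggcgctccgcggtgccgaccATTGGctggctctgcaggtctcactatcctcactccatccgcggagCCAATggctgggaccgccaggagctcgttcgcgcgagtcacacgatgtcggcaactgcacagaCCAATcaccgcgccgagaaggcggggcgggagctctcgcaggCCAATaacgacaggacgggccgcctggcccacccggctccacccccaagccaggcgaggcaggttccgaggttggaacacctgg

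In SREBF2 the element TCACCCCAC began at position −133 from the start, and ATTGG at −106. In INSIG1, TCAGGCCAC began at −108 and ATTGG at −170. HMGCS1 held ATTGG at −155 and −100 and no TCANNCCAC, and MSMO1 held 4 boxes, ATTGG at −185 and CCAAT at −139, −76 and −34. The tables held promoters for 27 of the 31 members, in 37 entries, not for FASN, SQLE, FDFT1 or ACAT2. Both strands were searched for 4 motifs. CCAAT was found in 22 of the 37 entries (59.5%, 19 of 27 members) and in 34.6% of all 35116 entries. TCANNCCAC was found in 3 entries (8.11%, in ACLY, INSIG1 and SREBF2) and in 3.82% of all entries. TCACNCCAC, a stricter form contained in it, was found in 1 entry (2.7%, SREBF2) and in 1.13% of all. CACGTG, the E-box, was found in 5 entries (13.5%, in INSIG1, LSS, SC5D and SCAP) and in 7.26% of all, and is left in lower case above. Of the members named most below, HSD17B7 lies at chr1:162790702-162812823, TM7SF2 at chr11:65111872-65116230, MVD at chr16:88651940-88663091, FASN at chr17:82078338-82098236, SREBF1 at chr17:17811334-17836986, LSS at chr21:46188446-46228774 and IDI1 at chr10:1039152-1056704 in the same build. The motif counts describe letters in a 300-base window and say nothing of binding.

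Libraries held 9546826 to 15099153 estimated counts (median 11521670), and levels below are CPM (counts per 1e+06 reads of a library) scaled by TMM. All 6 HEK293T markers were over 1 CPM at the median. Of 6 markers of differentiated kidney 0 were, and their summed level was at most 0.558 CPM in any library. The labelled tissue (kidney) thus describes the origin of the line. Over 1 CPM were also 1 of 5 neuroblastoma, 2 of 3 fibroblast, 1 of 4 adipocyte, 1 of 3 blood and 0 of 4 hepatocyte markers. That limit alone therefore does not identify the line. C9orf72, the targeted gene, was at 24.4 to 29.9 CPM on average in every group but ASO4, where the libraries held 10.5, 11.9 and 10.6 CPM against 27.5, 30 and 29.4 CPM in UT (log2 difference −1.4, SE 0.1, edgeR adjusted p 2.17e-16). With S13 its gene-level difference from NTG was −0.15 in WT (SE 0.09, edgeR adjusted p 0.279), 0.07 in N2V7 (0.677) and −0.06 in N2V8 (0.73), and with ASO2 it was 0.04 from UT (0.852), none of which was called. By the design of the study S13 and ASO2 address the repeat-bearing transcript variants and spare the most abundant one, so a gene-level sum over variants does not check those labels, and variants were not separated here. The 3 N2V7_S4 libraries stood apart from each other: they carried 95.6% of the squared weight of the 1 factor of unwanted variation in the fit, replicate 2 alone 63.3%. Calls of members that rest on that group are given with and without replicate 2, and ranges of group means that end in it with and without the group.

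A gene was called changed where the higher group exceeded the lower by over 25% with an adjusted p under 0.05, by edgeR's quasi-likelihood test with Benjamini-Hochberg adjustment across all genes and the related comparisons, which form a family. The differences are on the log2 scale, each with its standard error (SE), and n = 3 libraries in every group. Over 24 comparisons the 31 members gave 744 tests, of which 89 (12%) were called, 42 higher and 47 lower. Of all tests on all genes 11.8% were called, so that the members were called about as often as other genes. Comparisons within a family share control groups, and their calls are therefore not separate evidence. Groups are said not to overlap where every library of the higher group lay above every library of the lower group. How often that held among all genes tested, or among all called genes, was not counted. It is therefore given as a description of the libraries and not as support beyond the call.

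**Figure D1:**
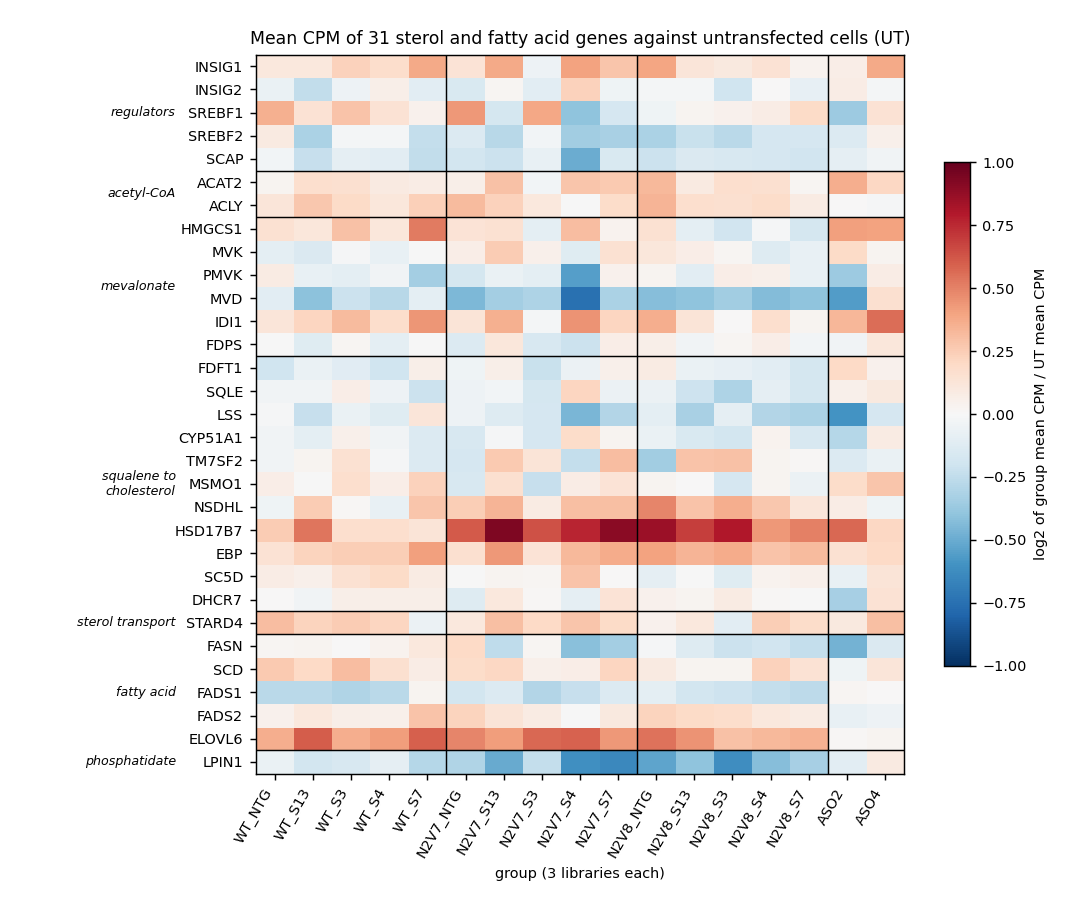
Group mean CPM of the 31 members relative to the mean of untransfected cells, as log2 (colour, red higher and blue lower), with members in rows by role and the other 17 groups of 3 libraries in columns. HSD17B7 and ELOVL6 are red in every transfected group, while MVD is blue in them.

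Differences among the 18 groups were found for 30 of the 31 members (edgeR 17-degree F test, all but MVK, adjusted p 0.117), where 84.4% of all genes tested passed the same test. The sizes were modest. The median member varied 1.39-fold between its highest and lowest group mean, against 1.61-fold for the median gene tested. Without the N2V7_S4 group the same figures were 1.35-fold and 1.55-fold.

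Among the regulators, SREBF2 ranged from 214 CPM in N2V7_S4 to 288 CPM in WT_NTG, 1.35-fold (1.33-fold without N2V7_S4). SREBF1 ranged more widely, from 11.4 CPM in N2V7_S4 to 20.4 CPM in N2V7_NTG (1.78-fold, or 1.74-fold without N2V7_S4), and also had the widest scatter of all members within groups, with a median coefficient of variation of 14.2%. INSIG1, which retains SCAP and is itself induced by SREBP, ranged from 373 CPM in N2V7_S3 to 513 CPM in N2V7_S4 (1.38-fold, or 1.36-fold without it). INSIG2, its close relative, ranged 1.39-fold and SCAP 1.41-fold, but without N2V7_S4 these ranges were 1.251-fold and 1.19-fold.

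In the mevalonate pathway, MVD, the decarboxylase that makes isopentenyl diphosphate, ranged from 20.7 CPM in N2V7_S4 to 38.8 CPM in ASO4 (1.87-fold, or 1.65-fold without N2V7_S4). HMGCS1, the synthase that opens the pathway, ranged from 223 CPM in N2V8_S3 to 365 CPM in WT_S7 (1.63-fold), and IDI1, the isomerase, from 197 CPM in N2V7_S3 to 295 CPM in ASO4 (1.497-fold). PMVK, a kinase, ranged 1.55-fold, or 1.36-fold without N2V7_S4. FDPS, which joins the 5-carbon units into farnesyl diphosphate, ranged 1.26-fold, and less without that group. MVK, the kinase ahead of PMVK, ranged 1.32-fold.

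Between squalene and cholesterol, HSD17B7, a ketosteroid reductase, had the widest range of all 31 members, from 10.4 CPM in UT to 19.9 CPM in N2V7_S13 (1.91-fold). LSS, which closes the sterol rings, ranged from 24.1 CPM in ASO2 to 39.8 CPM in WT_S7 (1.65-fold). TM7SF2, a sterol reductase, ranged from 8.14 CPM in N2V8_NTG to 12.8 CPM in N2V7_S7 (1.57-fold). NSDHL ranged 1.47-fold with N2V8_NTG highest, and SQLE, the squalene epoxidase, ranged 1.43-fold (1.32-fold without N2V7_S4). The other 6 enzymes of this stretch ranged between 1.32-fold (SC5D) and 1.42-fold (MSMO1), with SC5D at 1.24-fold and CYP51A1 at 1.29-fold without N2V7_S4.

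Of the fatty acid genes, FASN, the fatty acid synthase, ranged from 179 CPM in ASO2 to 285 CPM in N2V7_NTG (1.59-fold). ELOVL6, an elongase of saturated fatty acids, ranged 1.52-fold, with UT lowest. The desaturases SCD, FADS1 and FADS2 ranged 1.28-fold, 1.254-fold and 1.28-fold. ACLY and ACAT2, which make and condense acetyl-CoA, ranged 1.28-fold and 1.31-fold, STARD4 1.33-fold, and LPIN1 from 25.2 CPM in N2V7_S7 to 41.9 CPM in ASO4 (1.67-fold).

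In 8 members no comparison was called: MVK, FDFT1, SQLE, MSMO1, SC5D, SCD, FADS1 and FADS2. The share of all genes tested that were never called was not counted, so this number has no background. Reads of IDI1, FDPS, CYP51A1, HSD17B7 and SCD may be shared with pseudogenes named after them (3, 10, 3, 2 and 1 in the annotation), and FADS1 and FADS2 overlap at their ends, so their levels carry that added uncertainty.

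**Figure D2:**
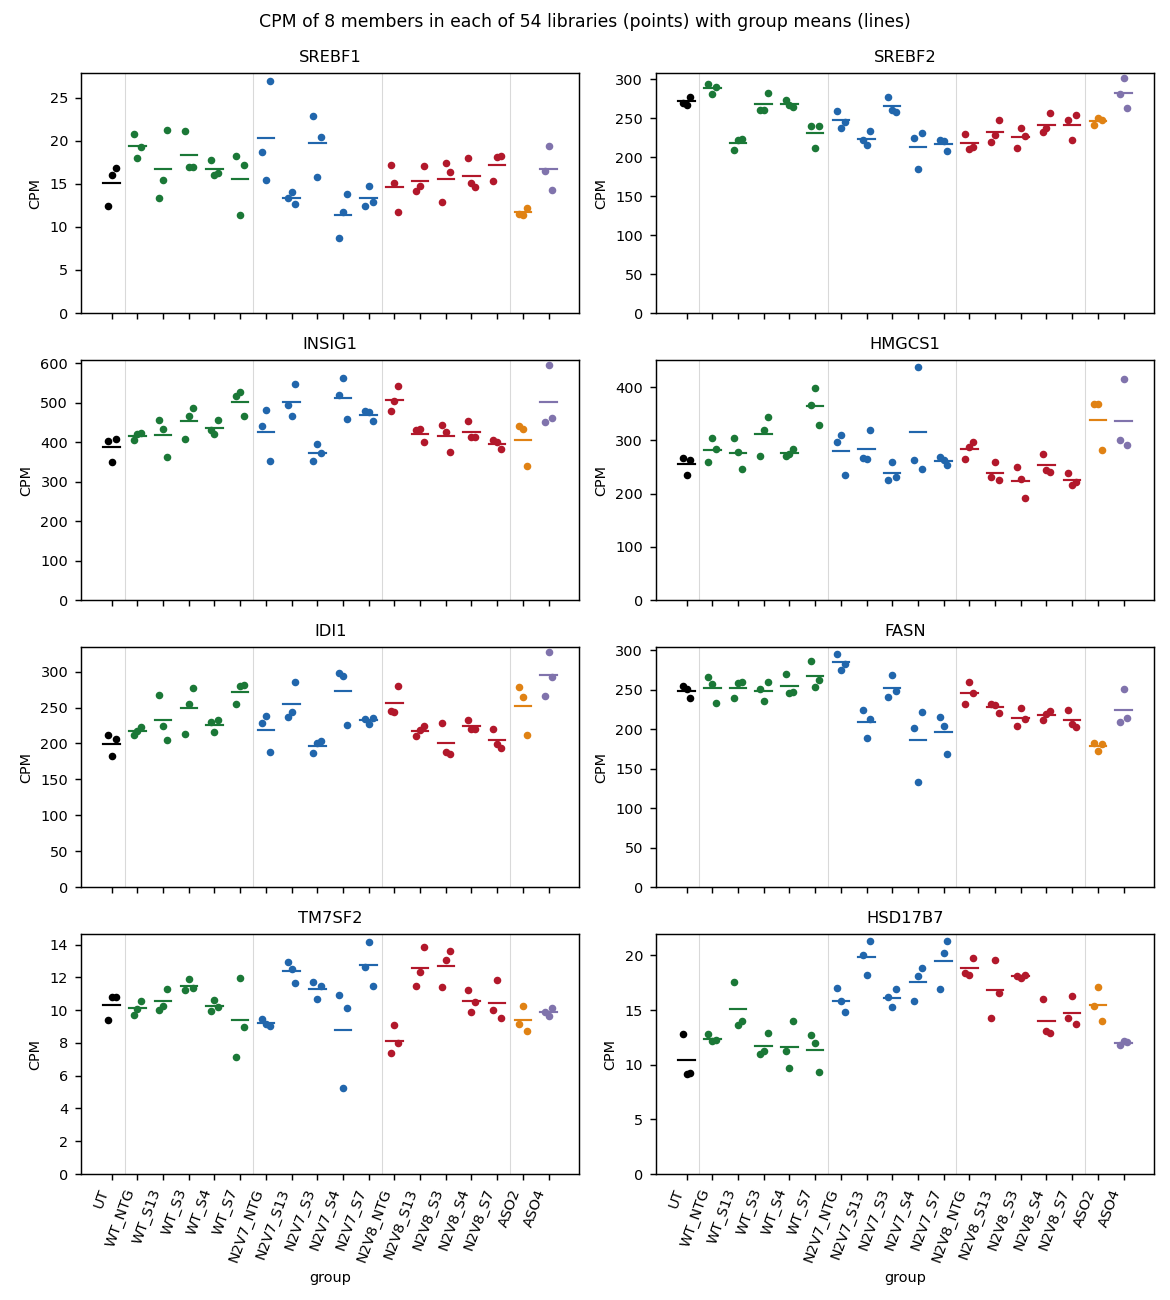
CPM of 8 members in each of the 54 libraries (points) with the mean of each group of 3 (lines), one panel per gene, every axis from 0. SREBF2 is lower in the WT_S13 points (209 to 223 CPM) than in WT_NTG (281 to 294 CPM), and HSD17B7 is higher in every N2V7 and N2V8 point than in UT, in some only slightly.

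Replicates of one group differed in these genes, and they did so together. Deviations of each library from its group mean were compared between members over 51 libraries of 17 groups, leaving out N2V7_S4. The points share their libraries, depth and scaling, and the values are given as a description. The closest pair was HMGCS1 and INSIG1 (r = 0.943), followed by IDI1 and MSMO1 (r = 0.898), SQLE and SCD (r = 0.859), IDI1 and SQLE (r = 0.85) and HMGCS1 and MSMO1 (r = 0.84). Of 465 pairs of members, 78 (16.8%) had r over 0.5, against 0.569% of pairs of all genes tested. Those background pairs were not matched to the members for level of expression. The median over member pairs was 0.057 and over all gene pairs −0.001, so the likeness lay in some members and not in the whole list.

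The 6 genes HMGCS1, IDI1, SQLE, MSMO1, INSIG1 and SCD, chosen after their values were seen, had r between 0.761 and 0.943 in all 15 of their pairs. Their mean deviation stayed within 0.1 (log2) of the group mean in 41 of 54 libraries. The lowest libraries were replicate 3 of ASO2 and replicate 3 of N2V7_NTG, each at −0.22, or 0.861-fold and 0.86-fold of their group mean. The highest were replicate 2 of ASO4 at 0.19 (1.14-fold) and replicate 1 of WT_S13 at 0.17 (1.12-fold). The deviation of these 6 genes had r = 0.02 with that of the library total.

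Not all members took part. SCD had the highest median r with the other members (0.458), then FDFT1 (0.439), INSIG1 and ACAT2 (0.413 each). SREBF1 (−0.222), PMVK (−0.226), SCAP (−0.177) and LSS (−0.121) were on the other side of 0, and IDI1 with SREBF1 reached r = −0.568. SREBF2 (0.002), FADS1 (−0.069), ELOVL6 (−0.061) and LPIN1 (−0.035) stood near 0. In 47 of the 465 pairs r was under −0.3, but the share of all gene pairs under that value was not counted.

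**Figure D3:**
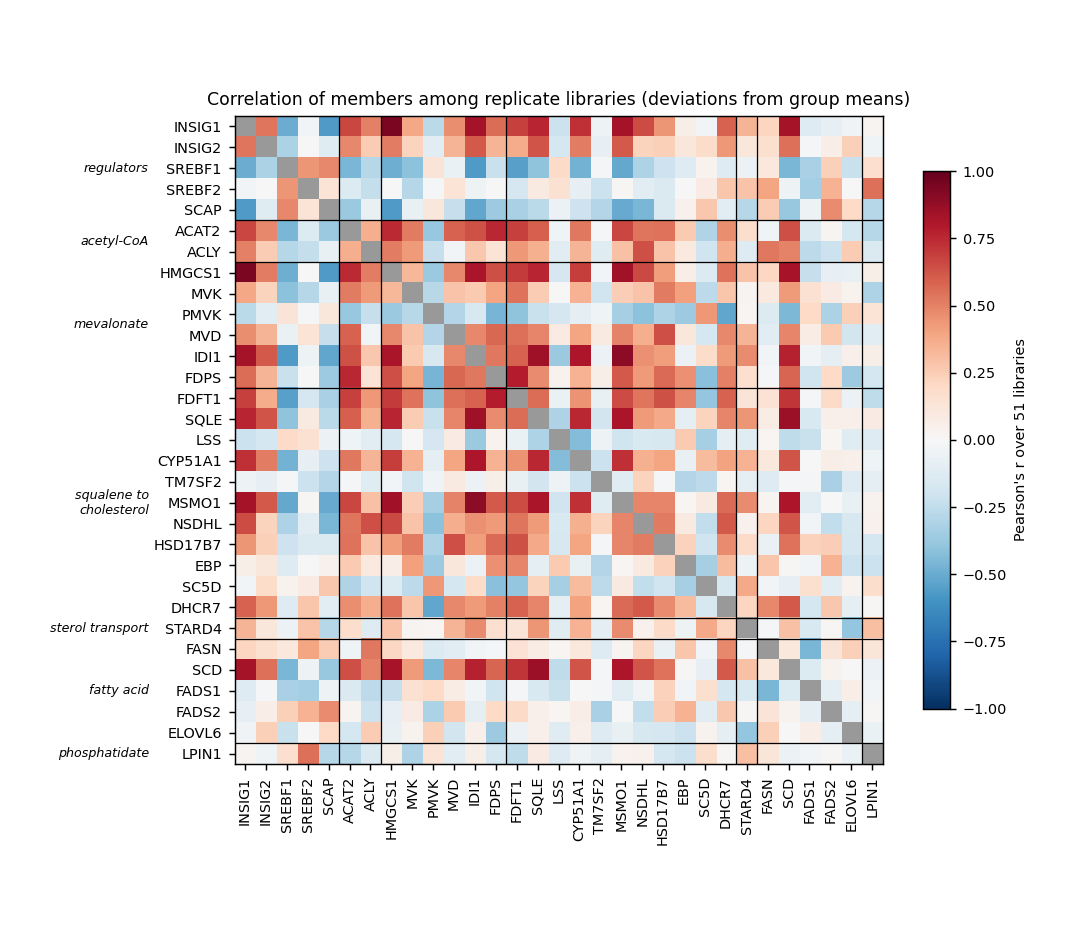
Pearson's r between members, over deviations of 51 libraries from their group means (N2V7_S4 left out), with members in the same order on both axes by role and colour from −1 (blue) to 1 (red). INSIG1, HMGCS1, IDI1, SQLE, MSMO1 and SCD form dark red cells (r from 0.761 to 0.943), while SREBF1, SCAP and PMVK are mostly blue.

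The first comparison asked what transfection with an effector and a non-targeting crRNA changed. ELOVL6 was higher than in untransfected cells with all 3 effectors. Its levels were 26, 26.6 and 25.6 CPM in UT, 37.6, 33.5 and 29.7 CPM in WT_NTG, 37.1, 36 and 36.4 CPM in N2V7_NTG, and 35.9, 38 and 39.8 CPM in N2V8_NTG. No NTG library reached down to the UT libraries. The differences were 0.36 in WT (SE 0.08, edgeR adjusted p 0.000157), 0.48 in N2V7 (SE 0.08, 9.16e-07) and 0.54 in N2V8 (SE 0.08, 1.07e-07). Without WT_NTG replicate 1 the difference in WT was 0.27 and under the fold limit. The lowest ELOVL6 value in any transfected library, 29.3 CPM in N2V8_S3 replicate 3, was still above the UT libraries, whereas ASO2 (29.5, 23.4 and 26.1 CPM) and ASO4 (28.4, 24.1 and 27.3 CPM) overlapped with UT.

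In WT_NTG, ELOVL6 was the 1 member called higher (background 2.71% of all genes tested) and none was called lower. In N2V7_NTG, 2 members were called higher (background 10.9%) and 1 lower (9.95%). HSD17B7 was at 17, 15.8 and 14.8 CPM against 12.8, 9.11 and 9.29 CPM in UT, 1.53-fold higher (0.61, SE 0.13, edgeR adjusted p 0.000183). MVD was at 25.4, 26.2 and 24.9 CPM against 40, 28.7 and 35.5 CPM, a difference of −0.44 (SE 0.10, edgeR adjusted p 0.00039). For both genes the groups did not overlap, and the UT libraries were the more scattered.

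In N2V8_NTG, 8 members were called higher (background 15.3%) and 3 lower (14.7%). HSD17B7 showed the largest difference, with 18.4, 18.2 and 19.8 CPM against 12.8, 9.11 and 9.29 CPM in UT, or 1.81-fold (0.86, SE 0.13, edgeR adjusted p 3.63e-07). NSDHL, the sterol dehydrogenase acting just ahead of HSD17B7, rose from 47.8, 46.2 and 42.5 CPM to 60.3, 63.9 and 66.8 CPM (0.48, SE 0.08, 8.27e-07). LPIN1 was at 27.7, 26.7 and 27.6 CPM against 37.8, 44.3 and 36 CPM (−0.53, SE 0.09, 6.73e-06), and MVD at 26.9, 23.7 and 27.3 CPM (−0.41, SE 0.10, 0.000973). In none of these did the groups overlap.

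Also called higher in N2V8_NTG were EBP, the sterol isomerase (0.40, SE 0.05, edgeR adjusted p 1.09e-08), INSIG1 (0.39, SE 0.10, 0.00314), IDI1 (0.36), ACLY (0.34) and ACAT2 (0.33), and TM7SF2 was called lower (−0.35, SE 0.13, 0.0338). The smaller of these were less firm: IDI1, ACAT2, ACLY, TM7SF2 and MVD each lost the call without at least 1 library, and 7 of the 11 calls were left without N2V8_NTG replicate 3. TM7SF2 also lost the call under 5 of 10 alternative fits, DESeq2 and no factor among them. SREBF2 was lower by 0.32 (SE 0.05, 4.03e-06), under the fold limit. SREBF1 differed from UT by 0.36 in WT_NTG, 0.44 in N2V7_NTG and −0.04 in N2V8_NTG, none of which was called (edgeR adjusted p 0.138, 0.0643 and 0.916). The median over the 31 members was 0.03 in WT_NTG, −0.01 in N2V7_NTG and 0.05 in N2V8_NTG, against 0.00 over all genes tested in each.

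Effectors were next compared with each other, each with NTG. N2V7_NTG against WT_NTG gave 1 member higher (background 5.51%) and 1 lower (5.22%). These were HSD17B7, with 17, 15.8 and 14.8 CPM against 12.8, 12.2 and 12.3 CPM (0.36, SE 0.13, edgeR adjusted p 0.0285), and MVD, with 25.4, 26.2 and 24.9 CPM against 31.4, 33.3 and 32.5 CPM (−0.35, SE 0.10, 0.00611). Groups did not overlap in either, although the HSD17B7 call was lost without any 1 of 4 of the 6 libraries. The MVD call was kept without any 1 library but lost with no factor.

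N2V8_NTG against WT_NTG gave 2 members higher (background 12%) and 2 lower (11.8%). HSD17B7 was higher by 0.60 (SE 0.12, edgeR adjusted p 0.000159) and NSDHL by 0.52 (SE 0.08, 2.06e-07), the latter with 60.3, 63.9 and 66.8 CPM against 42, 43.9 and 46.8 CPM. SREBF2 was lower, with 229, 210 and 213 CPM against 294, 281 and 290 CPM (−0.40, SE 0.05, 3.5e-08), and so was LPIN1, with 27.7, 26.7 and 27.6 CPM against 37.7, 36.7 and 38.3 CPM (−0.46, SE 0.09, 0.000112). These 4 calls held without any 1 library, and 5 to 8 members were called in those fits. Between N2V8_NTG and N2V7_NTG 0 members were called by edgeR or limma and 1 by DESeq2 (background 6.36% by edgeR). An unadjusted edgeR p under 0.05 was found for 12 members, but the share of all genes under that limit was not counted. Leaving out 1 library gave up to 3 calls.

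The central comparison of the study was S13 against NTG within each effector. SREBF2 was the 1 member called with the wild-type effector, where it fell. The levels were 209, 223 and 223 CPM in WT_S13 and 294, 281 and 290 CPM in WT_NTG, so the highest S13 library was well below the lowest NTG library. The difference was −0.40 (SE 0.05, edgeR adjusted p 1.3e-07), 1.32-fold lower, and it stayed between −0.42 and −0.37 without any 1 library. It is 1 of 31 members, or 3.23%, against a background of 4.24% called lower. The other members spanned −0.30 (MVD, adjusted p 0.0229) to 0.29 (NSDHL, 0.00335), with a median over the 31 of −0.03 (all genes 0.00). SREBF1 (−0.22, SE 0.18, 0.443) and INSIG1 (0.00, SE 0.10, 0.985) were not called.

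With N2V7, S13 gave 1 member higher (background 3.66%) and 2 lower (7.78%). FASN fell from 296, 276 and 283 CPM to 225, 189 and 213 CPM (−0.45, SE 0.07, edgeR adjusted p 5.51e-06). SREBF1 was at 13.4, 14 and 12.7 CPM against 18.7, 15.5 and 26.9 CPM (−0.61, SE 0.18, 0.0152), where replicate 3 of N2V7_NTG stood far above the other NTG libraries. Without that library the SREBF1 difference was −0.36 with an edgeR adjusted p of 0.203, and without N2V7_S13 replicate 3 it was −0.58 (0.0552). TM7SF2 rose from 9.45, 9.13 and 9.01 CPM to 12.9, 12.5 and 11.7 CPM (0.43, SE 0.12, 0.00987). No group overlapped in these 3 genes. SREBF2 (−0.14, 0.0542) and INSIG1 (0.24, 0.0975) were not called, and the median over the members was 0.10 (all genes 0.01).

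With N2V8, 1 member was called higher (background 1.72%) and none lower. This was TM7SF2 again, at 11.5, 12.3 and 13.9 CPM in N2V8_S13 against 7.39, 9.07 and 7.96 CPM in N2V8_NTG, 1.54-fold higher (0.63, SE 0.13, edgeR adjusted p 0.000214). N2V8_NTG held the lowest mean TM7SF2 level of all 18 groups, and UT (9.41, 10.8 and 10.8 CPM) lay between N2V8_NTG and N2V8_S13. SREBF1 (0.06), SREBF2 (0.09) and INSIG1 (−0.27, SE 0.10, 0.0655) were not called. Of the 31 members 23 were below 0 and 8 above, with a median of −0.09 (all genes 0.00). The share of all genes on each side of 0 was not counted, here or for the same counts below. Members that varied together between replicates are not separate observations.

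Whether S13 acted differently with the 3 effectors was tested as the difference between their S13 effects. FASN differed between WT and N2V7 by 0.45 (SE 0.10, edgeR adjusted p 0.000685), its own S13 effects being 0.00 in WT and −0.45 in N2V7. FDPS differed by −0.36 (SE 0.08, 0.000449), with effects of −0.11 and 0.25, as did MVD (−0.41, SE 0.14, 0.0278) and INSIG2 (−0.35, SE 0.11, 0.0159). That made 1 member higher (background 8.63%) and 3 lower (6.26%) in WT than in N2V7. The MVD and INSIG2 calls were each lost without 1 of several libraries, and those of FASN and FDPS were kept without any 1 library. With no factor only FASN kept the call.

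Between WT and N2V8, 3 members were higher (background 9.72%) and 2 lower (8.55%). SREBF2 differed by −0.49 (SE 0.08, edgeR adjusted p 2.91e-06), with S13 effects of −0.40 in WT and 0.09 in N2V8. NSDHL differed by 0.49 (SE 0.11, 0.000436), ACAT2 by 0.38 (SE 0.12, 0.0198), ELOVL6 by 0.33 (SE 0.10, 0.0155) and TM7SF2 by −0.57 (SE 0.18, 0.0147). Of these 5, SREBF2 and NSDHL kept the call without every single library. SREBF2 averaged 288 CPM in WT_NTG and 218 CPM in N2V8_NTG, but 218 CPM in WT_S13 and 232 CPM in N2V8_S13. NSDHL averaged 44.2 CPM in WT_NTG and 63.6 CPM in N2V8_NTG, but 54.3 CPM in WT_S13 and 55.3 CPM in N2V8_S13. For both genes the NTG groups were further apart than the S13 groups. Both were also called between N2V8_NTG and WT_NTG, whose libraries enter this comparison.

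Between N2V7 and N2V8, 6 members were higher (background 5.37%) and 1 lower (8.86%). In each of the 6 the S13 effect was positive in N2V7 and negative in N2V8. INSIG1 differed by 0.51 (SE 0.15, edgeR adjusted p 0.0101), ACAT2 by 0.48 (SE 0.12, 0.0033), HSD17B7 by 0.48 (SE 0.17, 0.0358) and IDI1 by 0.46 (SE 0.15, 0.0249). EBP (0.34, SE 0.07, 0.000496) and FDPS (0.34, SE 0.08, 0.000907) differed less, and FASN in the other direction (−0.34, SE 0.10, 0.011). SREBF1 had the largest difference, −0.67, with SE 0.26 and an adjusted p of 0.065. The median over the 31 members was 0.17, with 23 above 0 and 8 below, against 0.01 over all genes. INSIG1, HSD17B7, EBP, ACAT2 and IDI1 were also among the members called higher in N2V8_NTG against UT, and N2V8_NTG enters both comparisons. Each of IDI1, HSD17B7, EBP, FDPS and FASN lost the call without at least 1 library, and without N2V8_NTG replicate 3 the number of calls was 4.

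The crRNAs S3, S4 and S7 were set against the same NTG groups. With WT and S3, with WT and S4 and with N2V7 and S3, 0 members were called by edgeR, limma or DESeq2, where 2.74%, 2.67% and 4.15% of all genes were called in either direction. At an unadjusted edgeR p under 0.05 there were 0, 1 and 8 members, and here too the share of all genes was not counted. SREBF2 differed by −0.11, −0.10 and 0.10 and INSIG1 by 0.12, 0.07 and −0.19.

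With WT and S7, 2 members rose (background 9.36%) and 2 fell (9.83%). HMGCS1 went from 259, 305 and 284 CPM to 367, 398 and 329 CPM (0.37, SE 0.12, edgeR adjusted p 0.0272), and IDI1 from 211, 217 and 224 CPM to 255, 280 and 281 CPM (0.32, SE 0.11, 0.0299). PMVK went from 16.8, 16.4 and 17.1 CPM to 12.6, 11.6 and 13.3 CPM (−0.42, SE 0.12, 0.00816) and STARD4, which carries cholesterol between membranes, from 77.1, 81.6 and 83.2 CPM to 61.4, 56.1 and 69.6 CPM (−0.37, SE 0.08, 0.00027). Groups overlapped in none of the 4, but HMGCS1 and IDI1 each lost the call without any 1 of 4 libraries, and 1 call was left without WT_S7 replicate 2. SREBF2 was at −0.32 (SE 0.05, 7.3e-06), under the fold limit, SREBF1 at −0.30 (0.277) and INSIG1 at 0.27 (0.0617).

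N2V7_S4 gave 2 members higher (background 9.66%) and 7 lower (14.5%) than N2V7_NTG, but most of this rested on the discordant replicate 2. SCAP was at 67.4, 33.9 and 67.5 CPM against 69.8, 64.9 and 75.2 CPM, LSS at 33.5, 14.1 and 32.2 CPM against 35.2, 33.2 and 37.5 CPM, and MVD at 24.2, 11.8 and 26.2 CPM against 25.4, 26.2 and 24.9 CPM. In each of them only replicate 2 was clearly below NTG, and the groups overlapped, as they did for PMVK. The differences with all 3 libraries were −0.37 for SCAP, −0.50 for LSS, −0.37 for MVD and −0.49 for PMVK. Without replicate 2 they were −0.05, −0.10, −0.02 and −0.04. ACLY (−0.34), INSIG2 (0.36) and CYP51A1 (0.33) also lost the call without it, at −0.14, 0.21 and 0.22, which left 4 calls in that fit.

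FASN and SREBF1 were low in all 3 N2V7_S4 libraries and kept the call without any 1 of them. Without replicate 2 FASN was at −0.43 and SREBF1 at −0.86, and without N2V7_NTG replicate 3 SREBF1 was at −0.59. FASN was at 202, 134 and 222 CPM against 296, 276 and 283 CPM (−0.64, SE 0.07, edgeR adjusted p 1.33e-09) and SREBF1 at 8.73, 11.7 and 13.9 CPM against 18.7, 15.5 and 26.9 CPM (−0.85, SE 0.19, 0.00111). In a fit of the 6 compared libraries without the factor, 0 members were called. With all 3 libraries, SREBF2 was at −0.22 (0.00273) and INSIG1 at 0.27 (0.0701).

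N2V7 with S7 gave 1 member higher (background 5.38%) and 3 lower (8.91%), 3 of them the genes called with N2V7 and S13. FASN was at 216, 204 and 168 CPM (−0.54, SE 0.07, edgeR adjusted p 7.89e-08), SREBF1 at 12.5, 14.8 and 12.9 CPM (−0.61, SE 0.19, 0.017) and TM7SF2 at 12.6, 14.2 and 11.5 CPM (0.47, SE 0.12, 0.00384). LPIN1 fell from 32.4, 33.2 and 30.4 CPM to 22.9, 27.4 and 25.2 CPM (−0.35, SE 0.10, 0.00656). The S13 and S7 comparisons share the 3 N2V7_NTG libraries, in which FASN and SREBF1 had their highest group means of the series. Without N2V7_NTG replicate 3 the SREBF1 difference was −0.35 (0.225), the call also being lost without replicate 1 or 3 of N2V7_S7, and the LPIN1 call was lost without N2V7_NTG replicate 2 or N2V7_S7 replicate 1. SREBF2 was at −0.19 (0.00866) and INSIG1 at 0.14 (0.383).

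With N2V8, TM7SF2 was called higher with every further crRNA, as with S13, each time against the same low N2V8_NTG libraries (7.39, 9.07 and 7.96 CPM). Its levels were 11.4, 13 and 13.6 CPM with S3 (0.65, SE 0.13, edgeR adjusted p 9.77e-05), 11.2, 9.9 and 10.5 CPM with S4 (0.38, SE 0.13, 0.0343) and 10, 11.8 and 9.51 CPM with S7 (0.37, SE 0.13, 0.0378). In S4 and S7 the levels overlapped with UT (9.41, 10.8 and 10.8 CPM), and both calls were lost without any 1 of several libraries. Each of the S4 and S7 calls was also lost under 5 of 10 alternative fits, DESeq2 and no factor among them.

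N2V8 with S3 gave 1 member higher (background 2.15%) and 2 lower (0.917%), the latter IDI1 at 228, 188 and 185 CPM against 245, 244 and 280 CPM (−0.36, SE 0.11, edgeR adjusted p 0.0156) and HMGCS1 at 250, 227 and 192 CPM against 264, 287 and 298 CPM (−0.35, SE 0.12, 0.0436). N2V8 with S4 gave 1 higher (2.95%) and 1 lower (3.21%), HSD17B7 at 16, 13.1 and 12.9 CPM against 18.4, 18.2 and 19.8 CPM (−0.42, SE 0.12, 0.0112). N2V8 with S7 gave 1 higher (3.86%) and 4 lower (3.47%). These were NSDHL at 51.8, 50.5 and 46.1 CPM against 60.3, 63.9 and 66.8 CPM (−0.36, SE 0.08, 0.000268), INSIG1 at 406, 400 and 382 CPM against 479, 504 and 542 CPM (−0.36, SE 0.10, 0.012), HSD17B7 (−0.34, SE 0.12, 0.0482) and IDI1 (−0.33, SE 0.11, 0.0281).

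The members called lower in these 3 comparisons were, except HMGCS1, among those called higher in N2V8_NTG against UT, and the comparisons share the N2V8_NTG libraries. The median over the 31 members was −0.10 with S3 (24 below 0), −0.03 with S4 (18 below) and −0.10 with S7 (22 below), against 0.00 over all genes tested in each. The smaller calls depended on single libraries: without N2V8_NTG replicate 3 the calls with S3 went from 3 to 1 and those with S7 from 5 to 1, and without N2V8_S4 replicate 3 the calls with S4 went from 2 to 0. HSD17B7 with S7 lost its call on leaving out any 1 of 5 of the 6 libraries, and under 7 of 10 alternative fits, DESeq2, no factor and the replicate block among them. SREBF2 was at 0.05, 0.15 and 0.15 and SREBF1 at 0.09, 0.11 and 0.23 with S3, S4 and S7, none of which was called.

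**Figure D4:**
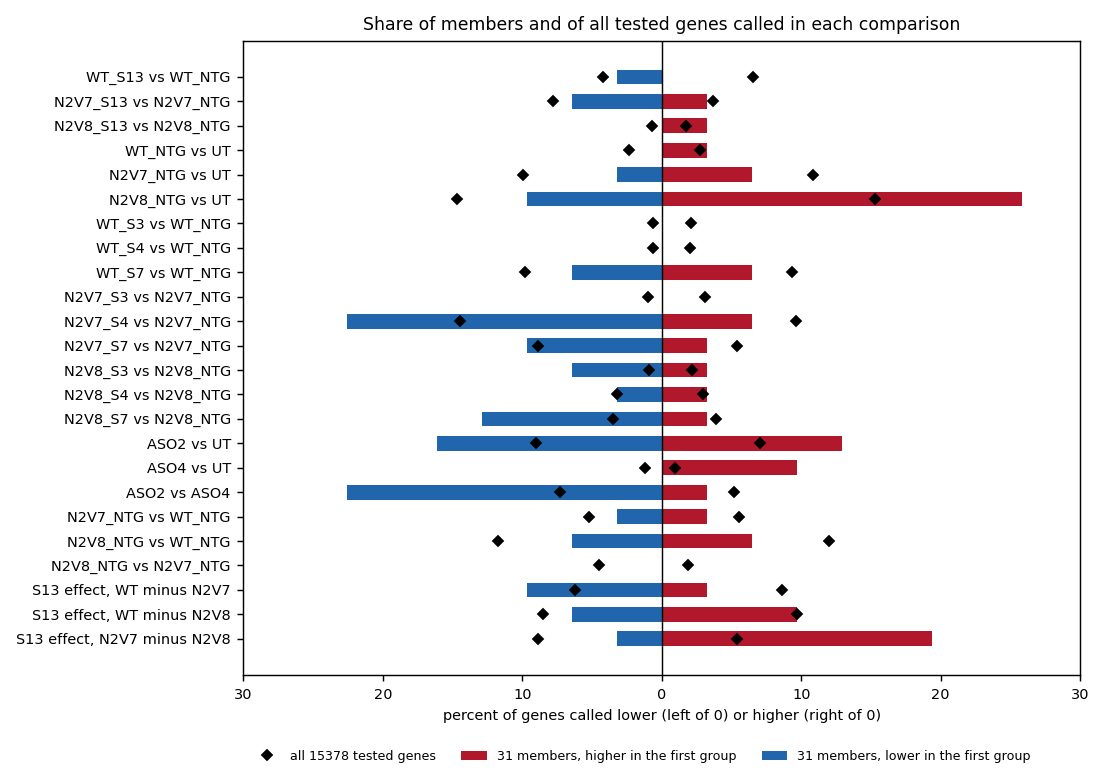
Percent of the 31 members (bars) and of all 15378 genes tested (diamonds) called in each of the 24 comparisons, higher in the first group to the right of 0 and lower to the left. The member bar passes the diamond most in ASO2 against ASO4 on the lower side (7 members, background 7.33%) and in the N2V7 minus N2V8 difference on the higher side (6 members, background 5.37%).

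Cells given ASO2 showed changes in both directions within the pathway. Against UT 4 members rose (background 7.07%) and 5 fell (9.01%). LSS fell from 34.5, 37.3 and 37.6 CPM in UT to 23.2, 23.7 and 25.5 CPM (−0.60, SE 0.10, edgeR adjusted p 1.16e-05). MVD fell from 40, 28.7 and 35.5 CPM to 24.8, 24.9 and 21.1 CPM (−0.55, SE 0.10, 2.97e-05), and FASN from 255, 251 and 240 CPM to 183, 173 and 181 CPM (−0.47, SE 0.07, 1.15e-06). HSD17B7 rose from 12.8, 9.11 and 9.29 CPM to 15.3, 17.1 and 14 CPM (0.57, SE 0.13, 0.000892) and HMGCS1 from 267, 234 and 263 CPM to 368, 367 and 281 CPM (0.41, SE 0.12, 0.0139). The groups did not overlap in any of the 5, a count without a background over all called genes. For HMGCS1, ASO2 replicate 3 was far lower than the other ASO2 libraries.

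The other calls with ASO2 were ACAT2 (0.37) and IDI1 (0.33) higher, and PMVK (−0.36) and DHCR7, the last reductase before cholesterol (−0.32), lower. Each of these 4, and HMGCS1, lost the call without at least 1 library, while LSS, MVD, FASN and HSD17B7 kept it. Without ASO2 replicate 1, 5 calls were left. SREBF1 (−0.37, SE 0.19, edgeR adjusted p 0.211), SREBF2 (−0.14, 0.0632) and INSIG1 (0.07, 0.742) were not called. The median over the 31 members was 0.01, the same as over all genes.

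ASO4, the oligonucleotide that lowered C9orf72, gave 3 members higher (background 0.917%) and none lower. IDI1 rose from 211, 183 and 206 CPM to 266, 327 and 292 CPM (0.56, SE 0.11, edgeR adjusted p 0.000171), 1.48-fold, with no overlap. HMGCS1 was at 301, 415 and 291 CPM against 267, 234 and 263 CPM (0.40, SE 0.12, 0.0183) and INSIG1 at 450, 595 and 462 CPM against 403, 350 and 408 CPM (0.38, SE 0.10, 0.00854). In both, replicate 2 of ASO4 was far above the other ASO4 libraries, and without it the differences were 0.22 (0.252) and 0.24 (0.128). Both calls were also lost without UT replicate 2, while IDI1 kept its call without any 1 library. These 3 are among the 6 genes that varied together between replicates, and ASO4 replicate 2 was the library in which those 6 were highest. SREBF1 (0.14) and SREBF2 (0.05) were not called. Of the 31 members 23 were above 0, with a median of 0.08 (all genes 0.00).

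**Figure D5:**
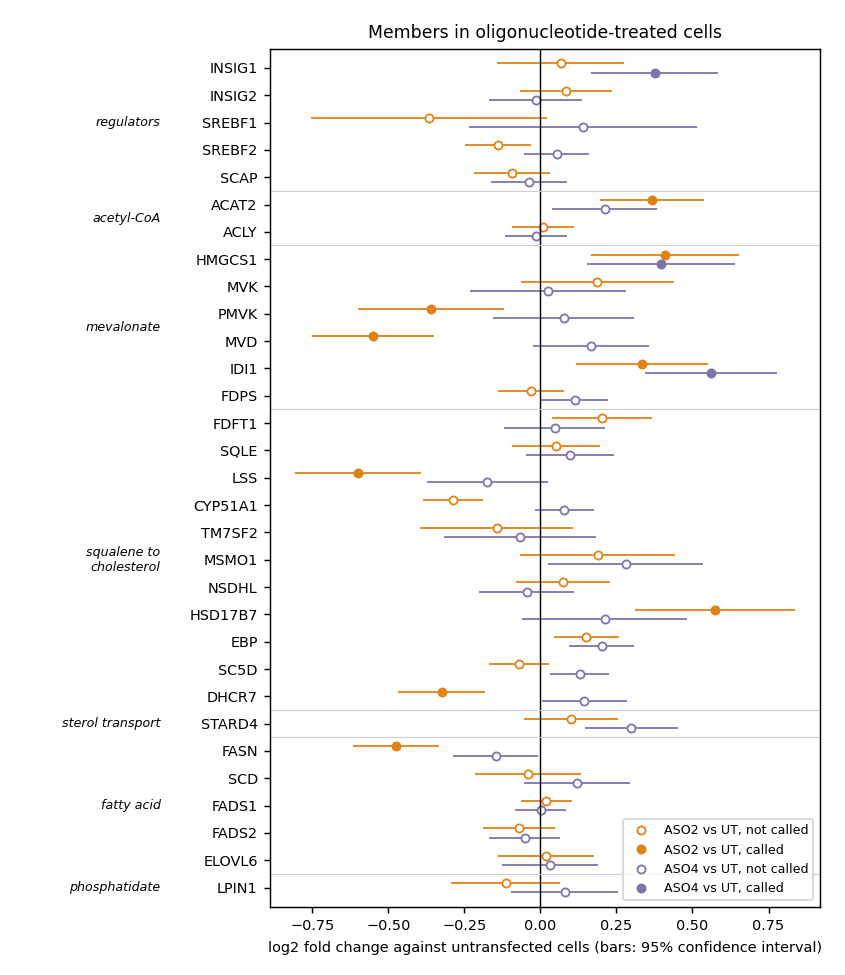
Log2 fold change of each member in ASO2 (orange) and ASO4 (purple) against untransfected cells, with 95% confidence intervals as bars and filled points for called members, in rows by role. LSS, MVD and FASN lie far to the left in ASO2 (−0.60, −0.55 and −0.47) and IDI1 far to the right in ASO4 (0.56), and both sets share the same 3 UT libraries.

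The direct comparison of ASO2 with ASO4 does not use UT. Of the members, 1 was higher (background 5.15%) and 7 lower (7.33%) in ASO2. MVD was at 24.8, 24.9 and 21.1 CPM against 36.5, 42.7 and 37.3 CPM (−0.71, SE 0.10, edgeR adjusted p 7.41e-08), 1.64-fold lower. DHCR7 was at 94.3, 86.6 and 76 CPM against 114, 134 and 109.1 CPM (−0.47, SE 0.07, 6.87e-07), and CYP51A1, the lanosterol demethylase, at 158, 156 and 146 CPM against 191, 208 and 194 CPM (−0.37, SE 0.05, 4.69e-08). In all 3 genes the 2 groups were apart, and these calls held without any 1 library.

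SREBF1 was at 11.5, 11.4 and 12.3 CPM against 16.5, 19.4 and 14.3 CPM (−0.51, SE 0.19, edgeR adjusted p 0.0449), a call lost without any 1 of 5 of the 6 libraries. PMVK was at 11.8, 11.7 and 13.4 CPM against 16.3, 15.1 and 18.4 CPM (−0.44, SE 0.12, 0.00406) and LSS at 23.2, 23.7 and 25.5 CPM against 31.7, 33.4 and 32.1 CPM (−0.43, SE 0.10, 0.00142). Neither overlapped, and with no factor neither was called. FASN (−0.33) was also lower, and HSD17B7 (0.36) was higher. FASN and HSD17B7 lost the call without 1 of several libraries. SREBF2 was at −0.19 (0.00528) and INSIG1 at −0.31 (0.0253), both under the fold limit. Of the 31 members 22 were below 0, with a median of −0.09 (all genes 0.01).

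Beyond the 31 members, 42 further genes of the pathway in 4 lists were all tested, and 61 of their tests over the 24 comparisons, 6.05%, were called, against 11.8% of the tests on all genes. In the 3 S13 comparisons 0 of 42 rose, where 1004 of 15378 genes tested rose with WT, 3.66% with N2V7 and 1.72% with N2V8. Lower were 2 with WT (background 4.24%), 1 with N2V7 (7.78%) and 0 with N2V8 (110 of 15378 genes). Those with WT were NPC1, which exports cholesterol from lysosomes (−0.39), and ABCG1, a sterol exporter induced by LXR receptors (−0.50), and that with N2V7 was GPAM, the first acyltransferase of glycerolipid synthesis (−0.35).

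Against UT, 3 of 42 rose and 5 fell in N2V7_NTG, 4 rose and 6 fell in N2V8_NTG, and none was called in WT_NTG. These counts stand against the backgrounds given above, 10.9% higher and 9.95% lower in N2V7_NTG and 15.3% and 14.7% in N2V8_NTG. ACACB, the mitochondrial acetyl-CoA carboxylase, was at −0.58 in N2V7_NTG and −0.84 in N2V8_NTG, NPC1 was at −0.50 and −0.56 and ABCG1 at −0.64 and −0.62. HACD3, a dehydratase of fatty acid elongation, was at 0.42 and 0.51, and ELOVL1, an elongase of very long chains, at 0.39 and 0.49. Of 9 genes that process or degrade SREBP and its partners, 1 rose and 1 fell in N2V7_NTG (SPRING1 at 0.37 and FAF2 at −0.34), and 2 rose and 2 fell in N2V8_NTG (PAQR3 at 0.34, UBE2G2 at 0.32, FAF2 at −0.39 and MBTPS1, the site-1 protease, at −0.34).

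With S7 and WT 5 of the 42 rose (background 9.36%) and 3 fell (9.83%). MYLIP, an LXR target that marks lipoprotein receptors for degradation, was at 0.77 and ABCG1 at 0.49. RNF145, a ubiquitin ligase of the SREBP pathway, and SCD5 were each at 0.45, and HACD3 was at 0.41. ACACB was at −0.72, MBTPS2, the site-2 protease, at −0.50 and NR1H3, an LXR receptor, at −0.49. N2V7_S4 gave 3 higher (background 9.66%) and 4 lower (14.5%), in the group whose replicate 2 stood apart. ASO2 gave 0 higher (background 7.07%) and 1 lower (9.01%), MBTPS2 (−0.33). ASO4 gave 0 of 42, where 328 of all 15378 genes tested were called. The comparison of ASO2 with ASO4 also gave 0 of 42, where 1919 of all genes were called.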

How the data were processed

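The authors quantified stranded poly(A) libraries (Kapa kit, NovaSeq) with Salmon 1.5.2 against GRCh38 transcripts and, with tximport, deposited length-scaled estimated counts per gene for all 54 libraries, with a mark of another kind (other: a yes or no) for the genes they kept, 15464 of 38137, whose rule was not given in the sources used here. The estimated counts were rounded to whole numbers and tested with edgeR 4.0.16 (R 4.3.3): TMM scaling, filterByExpr, robust quasi-likelihood F test, 1 term per group over all 54 libraries and 1 factor of unwanted variation taken from the residuals (RUVr, 23.5% of the residual variance). The study used limma-trend with 1 such factor. The 24 comparisons form 7 families, and p-values were adjusted by Benjamini-Hochberg within a family over all genes. Reads shared with pseudogenes were assigned by Salmon's estimate.

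The members and lists were chosen with earlier results of these data known. Named are SREBF1, SREBF2 and INSIG1, in each comparison the called members (the 5 largest where there were more, others by their difference), the 5 members of widest spread and up to 3 called genes per pathway list. The alternatives were no factor, limma 3.58.1, DESeq2 1.42.0, its size factors, no filter on low counts, a replicate block, adjustment within each comparison, the compared libraries alone, an adjusted p under 0.01, each library left out in turn and, chosen after seeing the data, the fit without the 3 N2V7_S4 libraries. When a library was left out, its own comparisons were refitted and the rest of the family entered the adjustment with their full p-values. Labels number replicates 1 to 3, but same-numbered libraries did not deviate together (mean correlation 0.00112, and in 0 of 21 comparisons were all pairs over 0.1), so replicates were not paired. No 2 replicates agreed within sampling noise (lowest chi-square per degree of freedom 2.61 over 54 pairs). The scripts were tested on simulated counts.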

Additional observations from a re-analysis of the deposited data

Results flagged for a closer look

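In 16 cases the effect of S13 against NTG on a member differed between effectors by the test of the difference itself (edgeR adjusted p under 0.05 and a difference of over 25%), each with 3 libraries in each of 4 groups. These are the differences described in the report, listed together on the log2 scale.

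Between WT and N2V7, FASN differed by 0.45 (SE 0.10), MVD by −0.41 (SE 0.14), FDPS by −0.36 (SE 0.08) and INSIG2 by −0.35 (SE 0.11).

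Between WT and N2V8, TM7SF2 differed by −0.57 (SE 0.18), NSDHL by 0.49 (SE 0.11), SREBF2 by −0.49 (SE 0.08), ACAT2 by 0.38 (SE 0.12) and ELOVL6 by 0.33 (SE 0.10).

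Between N2V7 and N2V8, INSIG1 differed by 0.51 (SE 0.15), HSD17B7 by 0.48 (SE 0.17), ACAT2 by 0.48 (SE 0.12), IDI1 by 0.46 (SE 0.15), EBP by 0.34 (SE 0.07), FDPS by 0.34 (SE 0.08) and FASN by −0.34 (SE 0.10). The 3 sets of differences share their groups in pairs.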

How the results depend on the processing

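No called difference of a member changed direction under any alternative run. Of the 89 calls, 89 remained under limma-trend with the same factor, 88 with DESeq2 size factors, 88 with the replicate block, 85 under DESeq2, 81 with no filter on low counts, 87 with adjustment within each comparison, 74 with the compared libraries alone, 62 with no factor and 60 at an adjusted p under 0.01. The 80 calls outside N2V7_S4 were all kept without that group, a fit that gives no count for the additional crRNAs as a family. The members called with the additional crRNAs numbered 27, and 17 with no factor, 16 with the compared libraries alone and 16 at an adjusted p under 0.01. In ASO2 against ASO4 there were 8, and 5 with no factor. The differences between effectors in the S13 effect numbered 16, and 8 with no factor and 7 at an adjusted p under 0.01. The cause was not tested. With each library left out, calls numbered 4 to 7 (all libraries 5) for S13, 11 to 19 (15) for NTG against UT, 20 to 32 (27) for the additional crRNAs, 7 to 13 (12) for the oligonucleotides, 5 to 8 (8) for ASO2 against ASO4, 6 to 11 (6) for effectors with NTG and 12 to 19 (16) for the differences in the S13 effect. The lowest oligonucleotide count was without UT replicate 2, the lowest of ASO2 against ASO4 without ASO4 replicate 2, and the highest for effectors with NTG without N2V8_NTG replicate 1. Without single libraries, 40 of the 89 calls were always kept, and 32 were kept in every fit.

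With the replicate number as a block, every family gave the same count of members called as without it (27 for the additional crRNAs), and 1 call, HSD17B7 in N2V8 with S7, was lost while another took its place. SREBF1 had the widest standard errors of the members (0.17 to 0.26), so its differences were the least finely resolved.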
